A study of Homo sapiens with 12 samples.

Results

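The replication-dependent histone genes are described here, as read in the RNA and the ribosome footprints of HEK293T cells, an established human embryonic kidney line, with and without an inhibitor of METTL3. The members were chosen by gene symbol alone, taking H1-1 to H1-5 and every numbered gene of the H2AC, H2BC, H3C and H4C series. This gave 66 genes of the 60662 in the RNA count files, made up of 5 H1, 15 H2A, 18 H2B, 13 H3 and 15 H4 genes. Of the 12224 genes in the table of translation efficiency, 3 were members, namely H2AC25, H2BC12 and H3C6. The series held 12 libraries. Wild-type cells were kept for 6 h either in 20 µM STM2457 with 0.2% DMSO (v/v) or in 0.2% DMSO only. RNA was sequenced in 4 replicates of each arm and ribosome footprints of 26 to 34 nt in 2 replicates of each arm. Both arms also received extra serum (10%) for the final 1 h and cycloheximide, which stalls elongating ribosomes, at 100 µg/ml for the final 3 min. The labels do not say that the replicates were separate cultures, so the p-values measure the spread between libraries, which may be technical. STM2457 acts on the METTL3 enzyme, which writes m6A into mRNA, and the inhibition itself is not read by RNA levels.

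Replication-dependent histone genes supply the core histones and the linker histone H1 that package newly copied DNA, and most lie in clusters on chromosomes 6 and 1. Their mRNAs are the well-known exception among animal mRNAs in that most end in a conserved stem-loop, bound by SLBP, in place of a poly(A) tail. They accumulate in S phase and are degraded when replication stops. Some of these genes also give polyadenylated transcripts, and replacement variants such as H3-3A, H3-3B, H2AZ1 and H2AX have genes that are expressed outside S phase too. The RNA libraries were poly(A)-selected, so the RNA values below describe the polyadenylated share of these transcripts and whatever other transcripts passed the selection. Histone coding sequences are very alike within a class, and how reads matching several copies were assigned is not given in the sources used here, so values of single members are uncertain to that extent.

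Promoters are shown for 5 members on which the results below turn: H2AC25 and H2BC12, which had footprint data, H2AC11, H2AC6 and H4C9, whose RNA differed between the arms. The sequences are the RefSeq windows of GRCh38.p14, from 250 bases before to 50 bases after the start, printed 5′ to 3′ in the direction of the gene. A window was found for 61 of the 66 members. The H2AC25 window is chr1:228457824-228458123 on the minus strand and holds 3 CCAAT boxes. The H2BC12 window is chr6:27146809-27147108 on the minus strand and holds 6 CCAAT boxes, 1 octamer and 3 TATA boxes. The H2AC11 window is chr6:27132793-27133092 on the plus strand and holds 4 CCAAT boxes, 1 octamer and 3 TATA boxes. The H2AC6 window is chr6:26123922-26124221 on the plus strand and holds 3 CCAAT boxes, 1 octamer and 1 TATA box. The H4C9 window is chr6:27139032-27139331 on the plus strand and holds 1 CCAAT box and neither of the other motifs. Capitals mark the motifs searched on both strands, which were CCAAT, the octamer ATTTGCAT and TATAAA, and matches may overlap.
H2AC25: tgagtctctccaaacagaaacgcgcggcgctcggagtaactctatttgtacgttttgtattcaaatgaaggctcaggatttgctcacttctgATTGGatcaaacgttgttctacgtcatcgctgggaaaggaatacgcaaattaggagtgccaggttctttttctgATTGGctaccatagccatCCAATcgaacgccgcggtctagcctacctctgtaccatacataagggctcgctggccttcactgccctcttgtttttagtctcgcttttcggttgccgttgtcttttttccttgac
H2BC12: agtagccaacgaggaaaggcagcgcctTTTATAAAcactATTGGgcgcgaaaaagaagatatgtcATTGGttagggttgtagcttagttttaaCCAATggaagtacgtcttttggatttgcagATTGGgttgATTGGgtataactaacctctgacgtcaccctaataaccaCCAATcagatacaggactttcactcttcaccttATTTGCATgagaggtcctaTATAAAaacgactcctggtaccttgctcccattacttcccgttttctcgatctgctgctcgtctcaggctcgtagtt
H2AC11: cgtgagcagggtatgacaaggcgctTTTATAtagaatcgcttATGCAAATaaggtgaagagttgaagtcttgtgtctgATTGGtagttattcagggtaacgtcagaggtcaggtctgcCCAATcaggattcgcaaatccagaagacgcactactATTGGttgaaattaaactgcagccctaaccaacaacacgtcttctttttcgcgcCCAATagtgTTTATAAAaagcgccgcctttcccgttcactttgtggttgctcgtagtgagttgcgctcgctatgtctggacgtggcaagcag
H2AC6: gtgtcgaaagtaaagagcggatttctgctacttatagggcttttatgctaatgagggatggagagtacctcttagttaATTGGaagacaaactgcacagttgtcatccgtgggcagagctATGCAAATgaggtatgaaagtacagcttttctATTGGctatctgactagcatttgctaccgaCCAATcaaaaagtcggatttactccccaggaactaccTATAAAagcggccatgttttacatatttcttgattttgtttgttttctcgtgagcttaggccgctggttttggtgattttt
H4C9: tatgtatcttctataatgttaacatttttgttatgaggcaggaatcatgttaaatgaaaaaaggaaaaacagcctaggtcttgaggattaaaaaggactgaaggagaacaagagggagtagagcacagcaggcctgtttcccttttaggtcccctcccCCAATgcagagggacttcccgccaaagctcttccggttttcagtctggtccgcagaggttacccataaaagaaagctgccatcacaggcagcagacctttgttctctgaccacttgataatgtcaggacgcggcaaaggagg

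The motifs divided the promoters by histone class. A CCAAT box was present in 5 of 5 H1, 14 of 14 H2A, 18 of 18 H2B and 11 of 11 H3 windows, but in 3 of 13 H4 windows. The same motif was in 10846 of 27305 RefSeq windows, or 39.7%. The octamer, known as a binding site of OCT1 in H2B promoters, was in 14 of 18 H2B and 11 of 14 H2A windows. It was in 1 of 11 H3 windows, in no H1 or H4 window, and in 2.19% of all windows. TATAAA was in 41 of the 61 member windows (67.2%) against 14.0% of all windows. H2A and H2B genes often lie head to head, so for 11 such pairs the windows overlapped by 253 to 293 bases and the same bases were read for both genes. A match describes the letters only, and H2AC25, whose window has no exact octamer or TATAAA, was among the members with the most reads.

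The RNA libraries held 43291730 to 51645739 counts, of which the 66 members took 0.00987% to 0.0117%. Members were therefore read at low depth. Across the 8 libraries, 12 members had no count at all, 49 had a mean under 1 CPM (a gene's counts scaled to a common library total, here after TMM scaling), and 5 had a mean of at least 5 CPM. The filter on low counts kept 36 members for testing, and the 30 left out had means of at most 0.126 CPM. Over the genes of the efficiency table only, the 4 footprint libraries held 4711513 and 3198063 reads with DMSO and 4039314 and 3898620 with STM2457. These reads were recovered from the deposited signal, and reads of members outside that table are not among them. All 7 HEK293T markers examined were detected, from PAX2 at 4.70 CPM to VIM at 543 CPM with DMSO. Of the markers of other cell types, 3 of 6 fibroblast, 4 of 6 epithelial carcinoma and 1 of 5 blood genes passed the filter. With DMSO, KRT18 was at 51.9 CPM, COL1A1 at 17.0, KRT8 at 8.87 and CDH1 at 5.73 CPM, all above PAX2, while KRT19 was at 0, so these lists do not set the cells apart by level alone.

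The 3 members with footprint data were at the top of the range of footprint to RNA ratio with DMSO. This ratio divides the deposited normalized footprint signal by the deposited normalized RNA signal of the same gene. Gene length cancels only if both signals were counted over the same region, and the region is not given in the sources used here. H2AC25, an H2A gene on chromosome 1, had a ratio of 42.0 with DMSO, with 48.8 in replicate 1 and 35.7 in replicate 2, and ranked 1 of 12224 genes. H2BC12, an H2B gene on chromosome 6, had a ratio of 13.4 (14.3 and 11.5 in the replicates) and ranked 10. The H3 gene H3C6 had a ratio of 12.5 (19.5 and 9.31) and ranked 13. The median gene had 1.01, and 99% of genes were under 3.48. Only 3 of the 66 members were in the efficiency table. H1-2, at a mean of 13.8 CPM in the RNA libraries, was not in it, while H3C6, at 3.96 CPM, was. Why the other members are absent was not tested, so these ranks say nothing about them.

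Genes of replacement variants, which encode similar proteins, had ratios from 0.507 for H3-3A to 3.84 for H2AX. Of these 11 genes, 10 were at 1.95 or less, and H2AX, whose gene is known to give both stem-loop and polyadenylated mRNA, ranked 86. No p-value is given for the ratios, because the denominator is the poly(A)-selected RNA, and the part of that selection in the ratios was not tested. The ranking depended on the RNA values used. With CPM of the RNA count files in the denominator, H2AC25 ranked 68, H2BC12 ranked 70 and H3C6 ranked 177. H2AX was then no longer the highest replacement variant, at rank 1587 behind H1-10 at 1285 and H2AJ at 1318. The authors' deposited table gave efficiencies of 41.0, 13.1 and 11.5 for H2AC25, H2BC12 and H3C6 with DMSO and 53.1, 16.5 and 23.3 with STM2457.

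**Figure D1:**
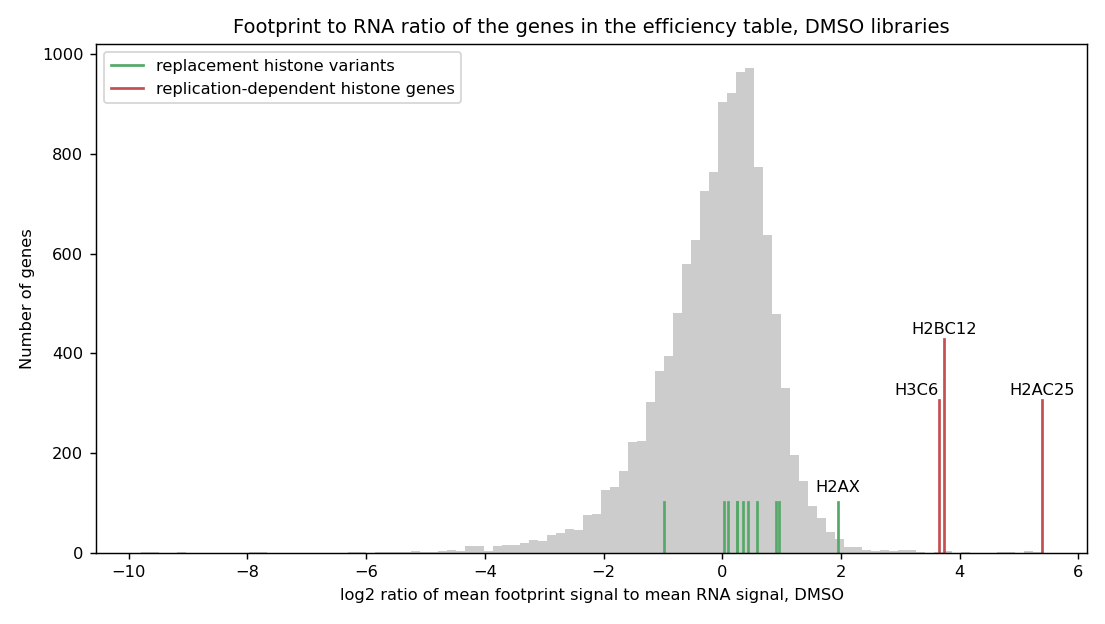
Histogram of the log2 footprint to RNA ratio with DMSO over the genes of the efficiency table (grey, number of genes), with lines at the 3 histone members (red) and the 11 replacement variants (green). Line heights carry no value. On the linear scale, H2AC25 (42.0), H2BC12 (13.4) and H3C6 (12.5) lie above the 99% mark of 3.48, and of the replacement variants H2AX (3.84) does.

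With STM2457 for 6 h, RNA of the members did not move in 1 direction. Of the 36 tested members, 3 were higher, 5 were lower and 28 did not pass (edgeR quasi-likelihood test, Benjamini-Hochberg adjusted p under 0.05 over 17807 genes). This is 22.2% of the members, where 47.8% of all tested genes were called, 26.2% higher and 21.6% lower. Single libraries moved these counts: 6 were higher without DMSO replicate 1 and 5 without STM2457 replicate 3, and 3 were lower without DMSO replicate 3 or without STM2457 replicate 1. The median standard error of the log2 fold change was 0.20 for the tested members and 0.06 for all tested genes, so smaller changes were harder to detect among the members. The median log2 fold change was 0.14 for the members and 0.00 for all genes. In 7 members the arms did not overlap in any library, 3 with STM2457 higher and 4 with it lower, where 44.7% of all tested genes did not overlap, 24.9% higher and 19.8% lower. In bulk RNA, a change in the number of cells in S phase and a change in RNA per cell cannot be told apart.

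These directions are relative to the other genes. Scaling by the 92 ERCC spike-in sequences moved the median of all genes by -0.20 on the log2 scale, and then 59.2% of genes were called, 12.1% higher and 47.1% lower. With that scaling, 1 member (H2BC13) was higher and 7 were lower, H2BC26 and H4C16 having joined the 5. H1-2 and H2AC6 were then at 0.14 (adjusted p = 0.127) and 0.16 (adjusted p = 0.121), both by edgeR. The members called lower are thus lower under both scalings. H1-2 and H2AC6 passed with TMM scaling only, and their estimates stayed positive with ERCC scaling. The spike-in share of counts was 0.389% to 0.408% in the DMSO libraries and 0.415% to 0.466% in the STM2457 libraries. This scaling therefore has a spread of its own.

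**Figure D2:**
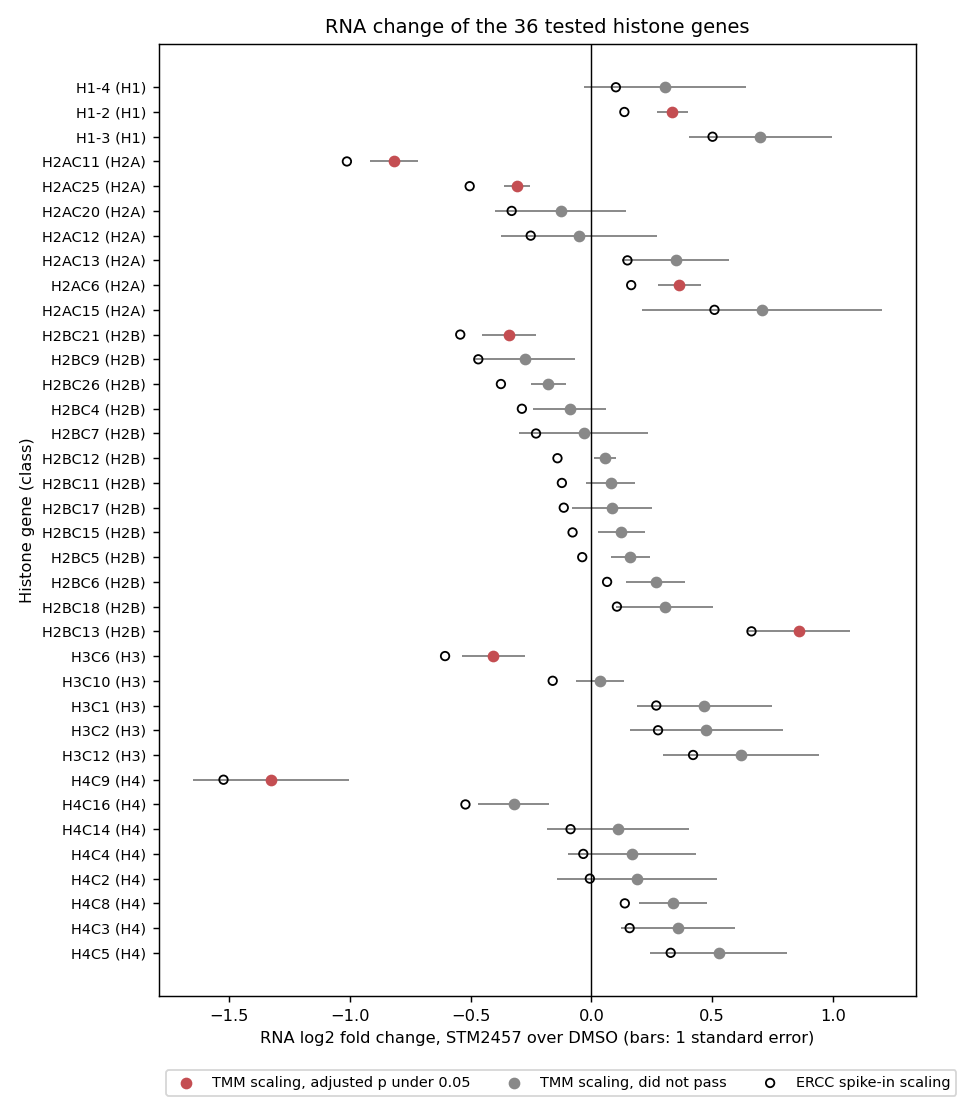
RNA log2 fold change (STM2457 over DMSO) of the 36 tested members, grouped by histone class, with 1 standard error. Filled points use TMM scaling (red where the adjusted p is under 0.05) and open points use ERCC spike-in scaling. The red points lie on both sides of 0, from H4C9 at -1.33 to H2BC13 at 0.86, and every open point lies to the left of its filled point.

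Linker histones bind the DNA that enters and leaves the nucleosome. Of the 3 tested H1 genes, 1 was higher and 0 were lower. The counts per class, here and below, are to be read against 26.2% of all tested genes higher and 21.6% lower. H1-2 was read at 12.6, 12.6, 12.2 and 11.4 CPM with DMSO and at 14.0, 16.7, 14.6 and 16.2 CPM with STM2457. Every treated library lay above every control. The mean rose from 12.2 ± 0.569 to 15.4 ± 1.29 CPM (SD, n = 4), a log2 fold change of 0.34 (SE 0.06, adjusted p = 0.000854, edgeR). The other tested H1 genes, H1-3 at 0.70 (SE 0.30) and H1-4 at 0.31 (SE 0.34), did not pass.

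H2A, which pairs with H2B at the surface of the nucleosome core, had calls in both directions, as did all tested genes. Of 7 tested H2A genes, 1 was higher and 2 were lower. H2AC11 was read at 3.28, 3.16, 3.09 and 3.01 CPM with DMSO and at 1.91, 1.89, 1.88 and 1.44 CPM with STM2457. The arms were far apart compared with the spread within either. H2AC11 fell by 0.82 on the log2 scale (SE 0.10, adjusted p = 2.12e-05, edgeR), from 3.13 ± 0.114 to 1.78 ± 0.228 CPM.

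H2AC25 was read at 23.7, 25.5, 25.9 and 23.0 CPM with DMSO and at 18.3, 20.4, 20.5 and 20.0 CPM with STM2457. All treated libraries were below all controls. The fall was 24.5 ± 1.39 to 19.8 ± 1.03 CPM, or -0.31 on the log2 scale (SE 0.05, adjusted p = 0.00034, edgeR). H2AC6 moved the other way, from 6.38, 6.93, 6.15 and 6.00 CPM to 7.57, 9.54, 7.14 and 8.51 CPM. Its arms did not overlap either, and its log2 fold change was 0.36 (SE 0.09, adjusted p = 0.00476, edgeR). The other 4 tested H2A genes did not pass.

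Of 13 tested H2B genes, 1 was higher, 1 was lower and 11 did not pass. H2BC12 was the H2B gene with footprint data. It was read at 18.0, 19.0, 17.3 and 16.9 CPM with DMSO and at 18.2, 19.2, 18.3 and 18.4 CPM with STM2457. These ranges overlapped, with a log2 fold change of 0.06 (SE 0.05, adjusted p = 0.361, edgeR) that was -0.14 with ERCC scaling.

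H2BC5 was read at 6.17, 5.65, 5.84 and 5.05 CPM and then at 5.72, 6.64, 6.22 and 6.82 CPM. These ranges overlapped too, at 0.16 (SE 0.08, adjusted p = 0.117, edgeR) with TMM and -0.04 with ERCC scaling. In the RefSeq annotation the span of H2BC5 overlaps those of H2BC6-AS1 and LARP1P1, so its reads may not be fully separated from theirs. H2BC21 was read at 5.32, 5.15, 5.16 and 4.31 CPM with DMSO and at 3.61, 4.68, 3.19 and 4.20 CPM with STM2457. Its treated libraries were mostly lower, but the ranges overlapped through DMSO replicate 4. H2BC21 fell by 0.34 (SE 0.11, adjusted p = 0.0245, edgeR), and this call was lost when any of DMSO replicates 1, 2 and 3 or STM2457 replicates 1 and 3 was left out (adjusted p from 0.0537 to 0.0707).

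H2BC13 was read at a low level, 0.305, 0.220, 0.211 and 0.214 CPM with DMSO and 0.487, 0.441, 0.446 and 0.364 CPM with STM2457, from 129 counts in all 8 libraries. The arms did not overlap. Its log2 fold change was 0.86 (SE 0.21, adjusted p = 0.00479, edgeR). With replicates 1 and 2 only the adjusted p was 0.067, and with replicates 3 and 4 only it was 0.0678. H2BC26, singled out after its values were seen, had arms that did not overlap, at 4.04 to 4.41 CPM with DMSO and 3.45 to 3.95 CPM with STM2457. At -0.18 (SE 0.07, adjusted p = 0.0572, edgeR) it did not pass with TMM scaling.

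H3 and H4 form the tetramer at the centre of the nucleosome. Of 5 tested H3 genes, none was higher and 1 was lower. H3C6 was read at 3.85, 4.67, 5.65 and 3.90 CPM with DMSO and at 3.08, 3.17, 3.29 and 4.05 CPM with STM2457. The ranges overlapped through STM2457 replicate 4. H3C6 fell by 0.41 (SE 0.13, adjusted p = 0.0219, edgeR), and without DMSO replicate 3 it was at -0.29 (adjusted p = 0.0633) and without STM2457 replicate 1 at -0.36 (adjusted p = 0.065).

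Of 8 tested H4 genes, none was higher and 1 was lower. H4C9 was read at 0.210, 0.220, 0.317 and 0.349 CPM with DMSO and at 0.122, 0.147, 0.0705 and 0.0857 CPM with STM2457, from 75 counts in all libraries. Every treated library was below every control. H4C9 fell by 1.33 (SE 0.32, adjusted p = 0.00441, edgeR), but with replicates 1 and 2 only it was at -0.68 with an adjusted p of 0.261. The RefSeq annotation places H4C9 inside the span of H2BC12, and the strand setting of the counting is not given in the sources used here, so reads of the pair may not be fully separated. The 28 members that did not pass had log2 fold changes from -0.32 to 0.71. The 12 members listed at 0 in all libraries included H3C14, H3C15 and H4C15, which have near-identical copies elsewhere in the genome. Why members were at 0 was not tested.

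**Figure D3:**
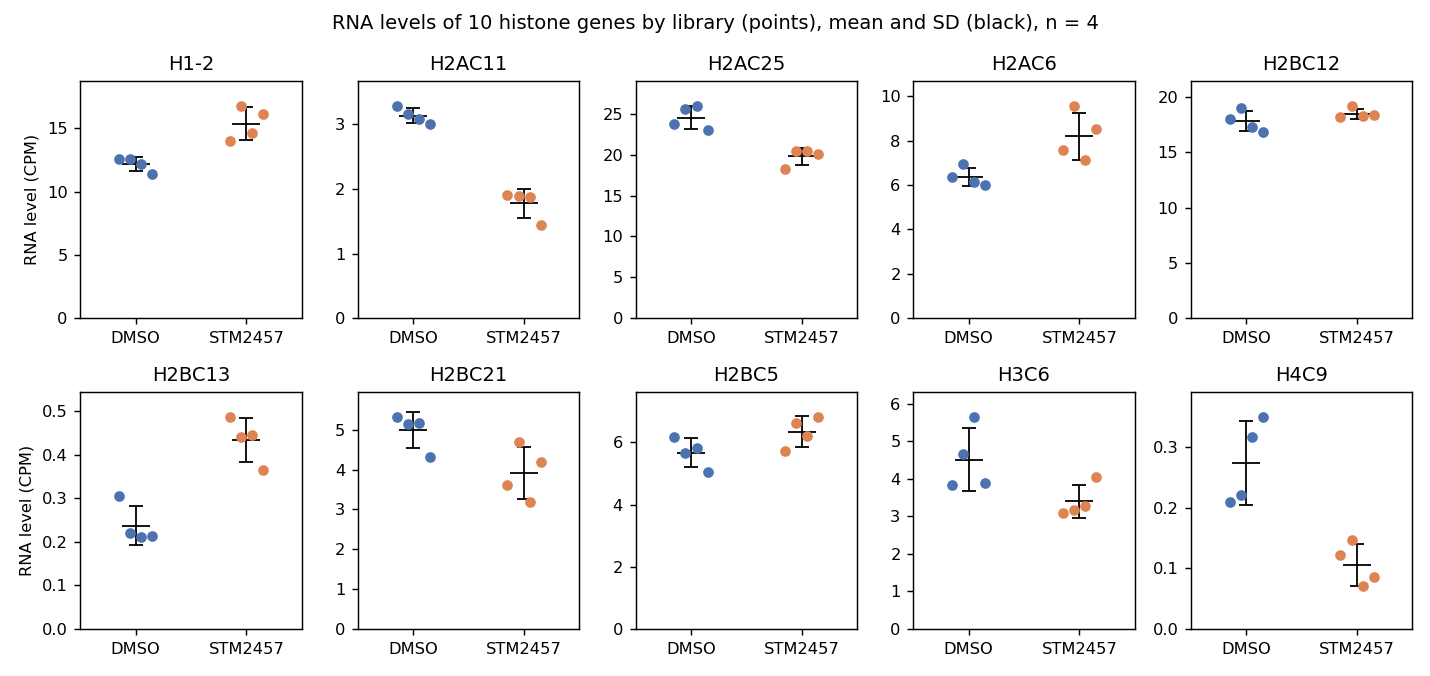
RNA level in CPM (TMM scaling, linear axis from 0) of 10 members in each of the 4 DMSO and 4 STM2457 libraries, with the mean and SD in black. The arms do not overlap for H1-2, H2AC11, H2AC25, H2AC6, H2BC13 and H4C9, and overlap for H2BC12, H2BC21, H2BC5 and H3C6.

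Summed over its genes, each class gave a total to which members contributed unequally. The H1 sum was 13.8 ± 1.20 CPM with DMSO and 17.4 ± 1.86 CPM with STM2457 (SD, n = 4), and the 2 arms did not overlap. H1-2 made up most of this sum. The H2A sum was 36.5 ± 1.66 and 32.4 ± 2.05 CPM, with overlapping arms, and H2AC25 was its main part. The H2B sum was 45.6 ± 2.09 and 46.5 ± 3.03 CPM, the H3 sum 8.18 ± 0.709 and 7.56 ± 0.806 CPM, and the H4 sum 5.93 ± 0.331 and 6.67 ± 1.34 CPM. All 66 members together came to 110.0 ± 5.26 CPM with DMSO and 110.6 ± 8.84 CPM with STM2457. With ERCC scaling the log2 ratio of the total went from 0.01 to -0.19, that of H2B from 0.03 to -0.17 and that of H4 from 0.17 to -0.03, so the sign of these 3 turned with the scaling. That of H3 went from -0.11 to -0.31. Without STM2457 replicate 2 the log2 ratio was 0.02 for H4, -0.01 for H2B and -0.04 for the total. That of H3 was -0.07 when DMSO replicate 3 was dropped and -0.06 when STM2457 replicate 1 was. The sums were not tested.

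In some libraries several members were high together. After the values were seen, 7 tested members were picked out because DMSO replicate 1 was more than 1.4-fold above each other DMSO library. They were H1-4, H2AC12, H2AC15, H2AC20, H3C2, H4C3 and H4C4. H1-4 was read at 2.67, 1.20, 0.740 and 1.03 CPM with DMSO and at 1.42, 2.56, 1.39 and 1.65 CPM with STM2457. H3C2 was read at 1.05, 0.421, 0.360 and 0.447 CPM and at 0.710, 1.11, 0.752 and 0.622 CPM. In H1-4, H2AC12, H3C2 and H4C3 the highest treated library was STM2457 replicate 2, as it was in 21 of the 36 tested members. The same counts were not taken over all tested genes, so whether this pattern is particular to the members was not tested. Some of the 7 rest on few reads, such as H2AC15 with 17, 2, 6 and 4 counts in the DMSO libraries.

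The 7SL RNA (RN7SL1), a part of the signal recognition particle that has no poly(A) tail when mature, was highest in the same libraries. It was read at 12.9, 5.59, 4.93 and 5.84 CPM with DMSO and at 8.48, 13.4, 9.23 and 11.1 CPM with STM2457. Its own change was 0.52 (SE 0.26, adjusted p = 0.121, edgeR). It was 1 of 13 RNAs looked up whose mature form has no poly(A) tail, and the others did not show the same pattern. Of these 13, 6 were at 0 in every library. The other 6 reached at most 0.470 CPM. Of these, TERC, SNORD3A and RNU4-2 were highest among the DMSO libraries in replicate 1, and none was highest among the treated libraries in STM2457 replicate 2. TERC was at 0.0953 CPM in DMSO replicate 1 and 0.126 CPM in STM2457 replicate 2, against 0.243 CPM in STM2457 replicate 1. The part of RNA without a tail in the values of the members was not tested. None of the 7 members passed the RNA test. Without DMSO replicate 1, 6 members were higher and 4 lower, H1-4, H2AC15 and H3C2 having joined the higher ones and H2BC21 having left the lower ones. H1-4, H2AC15 and H3C2 had been picked for being high in DMSO replicate 1, so leaving it out lowered their control level by selection. Without both DMSO replicate 1 and STM2457 replicate 2, 5 were higher and 5 lower of 34 tested.

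**Figure D4:**
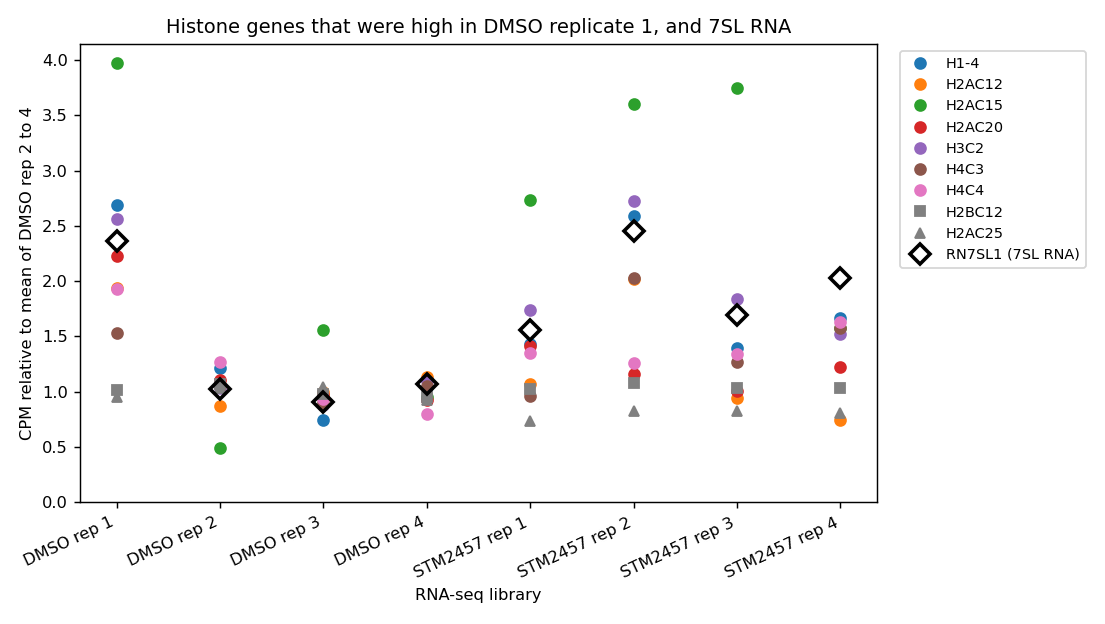
CPM of 9 histone genes and of 7SL RNA (RN7SL1, open diamonds) in the 8 RNA libraries, each divided by its own mean over DMSO replicates 2 to 4. The 7 genes picked for it and 7SL RNA are high in DMSO replicate 1, and H1-4, H2AC12, H3C2 and H4C3 again in STM2457 replicate 2, while H2BC12 (squares) and H2AC25 (triangles) lie close to 1 in DMSO replicate 1.

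Head-to-head H2A and H2B genes share a promoter region, and their ratio within a library does not depend on how libraries are scaled. Of the 11 pairs with overlapping windows, 6 had both genes tested. The log2 count ratio of H2AC11 to H2BC11 was -0.57, -0.52, -0.54 and -0.58 with DMSO and -1.26, -1.55, -1.06 and -1.90 with STM2457. The ratio was lower in all treated libraries, by 0.89 on average. H2BC11 itself was at 0.08 (SE 0.10) in RNA, beside the fall of 0.82 of H2AC11.

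The ratio of H2AC6 to H2BC4 was 2.34, 2.45, 2.47 and 2.62 with DMSO and 2.86, 2.80, 2.91 and 3.13 with STM2457, a difference of 0.45. The ratio of H2AC25 to H2BC26 was 2.54 ± 0.10 and 2.41 ± 0.03 (SD, n = 4), a difference of -0.13. In each of these 3 pairs the arms did not overlap, and the two-sided exact permutation p was 0.0286, the smallest that 4 against 4 libraries can give, or 0.0571 after adjustment over the 6 pairs. For the other 3 pairs the differences were -0.50 (H2AC13 to H2BC13), 0.88 (H2AC15 to H2BC15) and 0.32 (H2AC20 to H2BC21), with exact permutation p of 0.0857, 0.257 and 0.314. None of the 6 passed after adjustment. Single libraries moved some of these differences: H2AC15 to H2BC15 was 1.34 without DMSO replicate 1 and 0.45 without DMSO replicate 2. H2AC20 to H2BC21 was 0.58 when DMSO replicate 1 was dropped, 0.19 when DMSO replicate 3 was, and 0.21 when STM2457 replicate 1 was, and H2AC25 to H2BC26 was -0.08 without DMSO replicate 3. Partners were chosen by position, but H2AC11, H2AC6 and H2AC25 were already known to differ in RNA, so their ratios are no independent evidence of that.

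**Figure D5:**
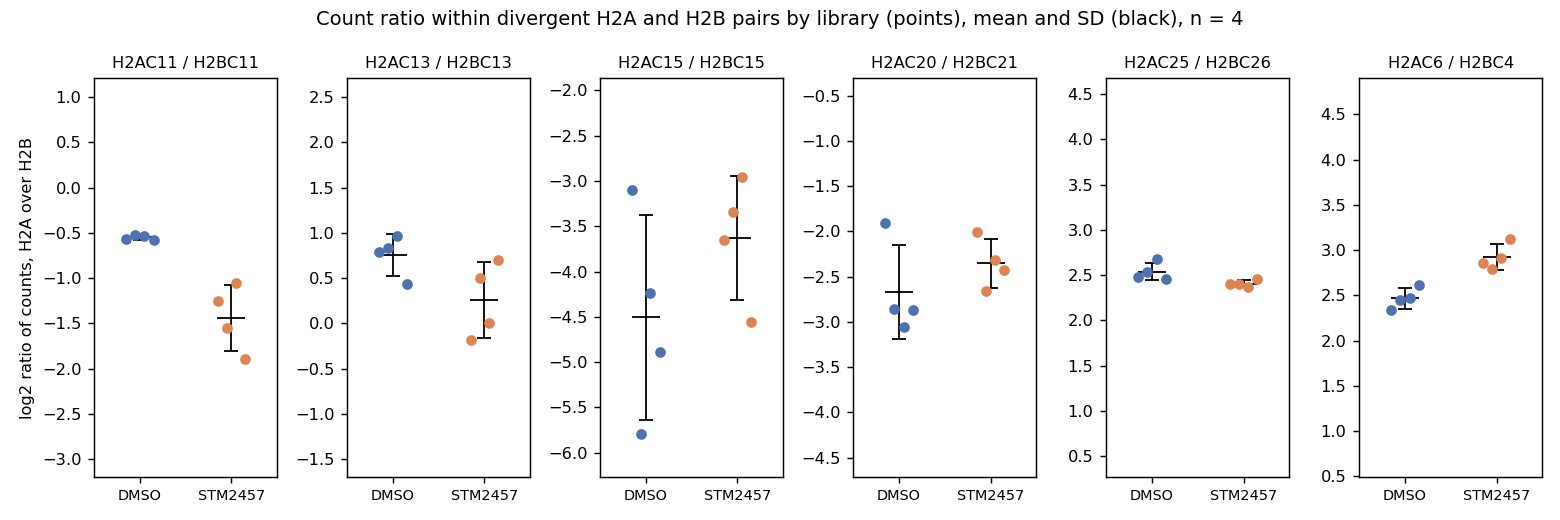
Log2 ratio of H2A to H2B counts in each RNA library for the 6 head-to-head pairs with both genes tested, DMSO and STM2457 side by side. The arms are separate for H2AC11 to H2BC11 (lower with STM2457), H2AC25 to H2BC26 (lower) and H2AC6 to H2BC4 (higher).

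Ribosome footprints could be compared for H2AC25, H2BC12 and H3C6. H2AC25 had a normalized footprint signal of 9810 and 8622 with DMSO and 8378 and 9960 with STM2457, from 1789 to 3048 reads per library. The ranges overlapped, and the log2 fold change was -0.01 (SE 0.09, adjusted p = 0.963, limma) while its RNA was lower. H2BC12 had 6350.17 and 5393 with DMSO and 6350.26 and 7934 with STM2457, from 1119 to 2032 reads. The nearest libraries of the 2 arms were level, and the others differed.

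The H2BC12 footprint log2 fold change was 0.28 (SE 0.09, adjusted p = 0.0334, limma on log2(signal + 1)). It was at 0.16 (adjusted p = 0.52) without DMSO replicate 2 and 0.12 (adjusted p = 0.511) without STM2457 replicate 2, so the call rests on these libraries. H3C6 had 315 and 227 with DMSO and 300 and 383 with STM2457, from 47 to 98 reads. Its ranges overlapped, at 0.34 (SE 0.22, adjusted p = 0.341, limma). One of the 3 was therefore called higher, where 15.7% of the 10906 tested genes were called, 9.59% higher and 6.13% lower.

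Translational efficiency, footprints over RNA, did not pass the test for any of the 3. The RNA term is poly(A)-selected here too, and the part of that selection in these changes was not tested. The interaction of assay and treatment was 0.32 (SE 0.24, adjusted p = 0.775) for H2AC25, 0.30 (SE 0.16, adjusted p = 0.615) for H2BC12 and 0.76 (SE 0.70, adjusted p = 0.849) for H3C6, by limma with a weight per assay. All 3 estimates were above 0, and 0 of 3 had an unadjusted p under 0.05 (0.194, 0.0824 and 0.295). An edgeR interaction gave 0.34, 0.27 and 0.75 with adjusted p of 0.0937, 0.237 and 0.182. Of all 10906 genes, 1.04% were called, 0.229% higher and 0.807% lower. The authors' deposited table lists log2 changes of efficiency of 0.37, 0.33 and 1.01 for H2AC25, H2BC12 and H3C6, with no p-value.

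Genes that act on histones and their mRNAs were set beside the members. Of all tested genes, 26.2% were higher and 21.6% lower with TMM scaling, and 12.1% higher and 47.1% lower with ERCC scaling, and the counts below are to be read against these shares. Of 11 replacement variant genes, 1 was higher and 4 were lower. H2AX, the variant phosphorylated at DNA breaks, went from 189 ± 7.28 to 123 ± 3.28 CPM, a fall of 0.63 (SE 0.03, adjusted p = 6.18e-09, edgeR). H1-10, a linker variant, went from 169 ± 9.66 to 239 ± 10.3 CPM, at 0.50 (SE 0.04, adjusted p = 6.99e-07, edgeR). H3-3B was at -0.19 (SE 0.02) and MACROH2A2 at -0.19 (SE 0.03), both called lower, and the median of the 11 was -0.02. With ERCC scaling 1 was higher and 7 were lower.

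Of 27 genes of histone mRNA 3′ end formation and decay, 14 were higher and 5 lower with TMM scaling, but 2 were higher and 14 lower with ERCC scaling. LSM11, a protein of the U7 particle, was at 0.52 (SE 0.03) with TMM and 0.33 with ERCC scaling. CASP8AP2, known as FLASH and part of the same cleavage machinery, was at 0.45 (SE 0.03) and 0.25, called higher under both scalings. CCNF, the cyclin that targets SLBP for degradation, was at 0.31 (SE 0.03) and 0.11, and CDK9, the kinase of transcription elongation, at 0.30 (SE 0.03) and 0.10. The latter 2 did not pass with ERCC scaling.

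Of 23 histone chaperone genes, 8 were higher and 1 lower with TMM scaling and 4 higher and 14 lower with ERCC scaling. DAXX, which deposits H3.3 with ATRX, was at 0.61 (SE 0.03), UBN1, a subunit of the HIRA complex, at 0.52 (SE 0.03), and HJURP, the chaperone of CENPA, at 0.42 (SE 0.03), each called higher under both scalings. CHAF1B, a subunit of CAF-1, was at 0.26 (SE 0.03) and did not pass with ERCC scaling. Of 21 S phase genes, 5 were higher and 7 lower with TMM and 1 higher and 17 lower with ERCC scaling. CDT1, which licenses replication origins, was at 0.41 (SE 0.03) and E2F1, a transcription factor of S phase entry, at 0.23 (SE 0.03), and the call of E2F1 was lost with ERCC scaling (0.04, adjusted p = 0.548, edgeR). CDC45, of the replicative helicase, was at -0.21 (SE 0.02) and cyclin A2 (CCNA2) at -0.17 (SE 0.03), each lower under both scalings. The median log2 fold change of the S phase genes was -0.04 with TMM scaling, close to that of all tested genes.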

How the data were processed

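The authors deposited raw read counts per gene for 8 RNA-seq libraries and a table with normalized signal for RNA and footprints per library, mean signal, translation efficiency as a ratio, and its log2 fold change. The build was GRCh38.p12, and the tools named were Subread 2.0.3 (featureCounts), STAR 2.7.3a, SAMtools 1.10, UMI-tools 1.1.2, FastQC 0.11.9, DESeq2 and bedtools 2.29.2, without their roles, per the submitters' processing notes. Footprint signals in the deposited table were whole multiples of a step per library in 100% of values (within 0.1 read), so footprint reads were recovered. The authors' mean RNA signal uses replicates 1 to 3.

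Counts were tested with edgeR 4.0.16 in R 4.3.3 (TMM, filterByExpr, spike-ins left out, standard errors as the absolute log2 fold change over the square root of F). Footprints were tested with limma 3.58.1 on log2(signal + 1) for 10906 genes with a mean of at least 10 reads, and efficiency as an interaction with a weight per assay. CPM are TMM-scaled, with a prior count of 2 on the log2 scale. Pair ratios used count + 0.5. DESeq2 1.42.0 and the settings below were alternatives. Intervals of counting error are not given. Symbols were matched from Ensembl IDs for 60306 genes.

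Members and context lists were chosen with earlier results of these data known. Values per library are given for members with a mean of at least 5 CPM, at least 100 reads per footprint library, or an adjusted p under 0.05 in a test. Of each context list the 4 genes with the smallest RNA p are named, and other named genes were chosen after their values were seen.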

Additional observations from a re-analysis of the deposited data

Results flagged for a closer look

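Of 32 groups of 4 RNA libraries checked, 4 held a library whose gap to its nearest neighbour took up more of the range than Dixon's 95% critical value for 4 allows, and chance alone gives about 1 in 20. H2BC13 was at 0.305 CPM in DMSO replicate 1, with the next highest DMSO library at 0.220. H2BC21 was at 4.31 CPM in DMSO replicate 4, with the next lowest at 5.15. The summed H2A level was 34.0 CPM in DMSO replicate 4, with the next lowest at 37.1. H2AC11 was at 1.44 CPM in STM2457 replicate 4, with the next lowest at 1.88. H2BC13, H2BC21 and H2AC11 were each called in the RNA test with these libraries included, and without the library in question all 3 calls held.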

How the results depend on the processing

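The members higher in RNA were 3 (edgeR) and came to 3 with DESeq2, 1 with ERCC scaling, 5 with no filter (54 tested), 5 without both DMSO replicate 1 and STM2457 replicate 2, a setting chosen after seeing the data, and 3 to 6 with single libraries left out. The members lower were 5, and 3 to 5 with single libraries left out. Over all genes, 8510 were called in the main fit and 7790 to 8647 with single libraries left out. It was 7291 without both DMSO replicate 1 and STM2457 replicate 2, 8796 with no filter and 9544 with a replicate block. H2BC12 RNA (-0.14) and H2BC5 RNA (-0.038) turned negative with ERCC scaling. The H2AC25 footprint change, -0.01, was 0.0097 with edgeR on recovered reads and -0.13 to 0.11 with single libraries left out. Members higher in footprints were 0 or 1 with single libraries left out. With ERCC scaling the log2 ratios of class sums were 0.14 for H1, -0.37 for H2A, -0.17 for H2B, -0.31 for H3, -0.03 for H4 and -0.19 for all members. With CPM as RNA value, the ratio percentiles of H2AC25, H2BC12 and H3C6 went from 99.996, 99.92 and 99.90 to 99.45, 99.43 and 98.55. The cause was not tested. Same-numbered RNA libraries correlated at 0.15, 0.23, 0.15 and 0.08, not all above 0.1, so the number was not taken as a pairing. Across the arms, correlations were positive among replicates 1 and 2 and among 3 and 4 (0.08 to 0.27) and negative between these sets (-0.26 to -0.09), a structure the labels do not name. Replicates 1 and 2 alone gave 4 members higher and 4 lower of 36 tested, where 7935 of all genes were called. Replicates 3 and 4 alone gave 3 and 4 of 34 tested, where 6491 of all genes were called. The members called differed, and only H1-2 and H2AC6 (higher) and H2AC11 and H2AC25 (lower) were called in both sets. H1-3 and H4C8 were called higher with replicates 1 and 2 alone. H1-4 was called higher and H4C16 lower with replicates 3 and 4 alone. With replicates 3 and 4 alone, H2BC21 (adjusted p = 0.0792, edgeR) and H3C6 (adjusted p = 0.104, edgeR) did not pass. With a replicate block, 4 members were higher and 5 lower in RNA, H4C5 joining, and 1 was higher in footprints, with no efficiency call. The efficiency counts were 0 under every alternative run. Depth limits members with few reads, such as H4C9 and H2BC13, and all footprint results.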
